A study of Mus musculus with 4 samples.

Results

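Mitochondrial ribosomal protein genes are described here in naive CD4+ T cells and in cells cultured for 3 h toward induced regulatory T (iTreg) cells. The members were all genes whose name on the array is Mrpl or Mrps with a number and at most 1 letter from a to c. They were 77 of 32631 named genes, read by 119 probes. By their roles, 50 encode proteins of the large subunit, among them Mrps18a and Mrps30, which carry small-subunit names, and 26 encode proteins of the small subunit. The remaining member, Mrps36, carries a ribosomal name but is known as a part of the 2-oxoglutarate dehydrogenase complex.

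The mitochondrial ribosome translates the few messages of the mitochondrial genome, which encode core subunits of the respiratory chain. Its RNA comes from the mitochondrial genome, whereas its proteins are encoded in the nucleus, made by cytosolic ribosomes and imported. Some of these proteins descend from those of bacterial ribosomes and others are found only in mitochondria. Naive T cells have small mitochondria with low activity, and activation through the T cell receptor is known to start mitochondrial growth before the first division.

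The study asked how the nuclear receptors Nr4a1, Nr4a2 and Nr4a3 act in early iTreg differentiation, and 4 arrays were used: naive T and iTreg at 3 h, each as 1 array of WT cells and 1 of Nr4a-TKO cells. The mice were C57BL/6J, and the Nr4a triple knockout (Nr4a-TKO) joined floxed alleles of Nr4a1 and Nr4a2 with a germline Nr4a3-/- allele; the Cre line is not given in the sources used here. Naive cells were sorted from spleen and lymph nodes as Ly5.2+ CD4+ CD44-low Foxp3- cells, where Foxp3 was read through a human CD2-CD52 knock-in reporter. WT cells came from Rag2-/- hosts of WT marrow alone and Nr4a-TKO cells from Rag2-/- hosts that also held Ly5.1 WT marrow, so genotype and host environment cannot be told apart. Both iTreg groups were stimulated with plate-bound anti-CD3 and with anti-CD28 in the presence of anti-IFN-γ, anti-IL-4, IL-2 and TGF-β1. No group has a second array and the number of animals behind an array is not given in the sources used here, so no difference below has a replicate check and none carries a p-value.

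All values are log2 processed signals relative to the 75th percentile of their array, so that 0 is the level of that percentile and a difference of 1 is 2-fold. All 77 genes were well above background on all 4 arrays, as were 109 of the 119 probes, and no spot was saturated. Probes printed on several spots of an array had a median SD of 0.041 to 0.050 over those spots, which puts the spot-to-spot SD of a difference between 2 arrays at 0.064. This spread covers the array only, not cultures or animals. The percentage of probes well above background lay between 64.9% and 67.6%.

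The labels were checked on the deleted genes and on cell markers. Nr4a1 stood 1.29 higher on the naive array labelled Nr4a-TKO than on the WT one and 0.50 higher at 3 h, and both probes of Nr4a2 stood higher at 3 h, by 1.38 and 1.41. Of 3 probes of Nr4a3, 2 were lower at 3 h in Nr4a-TKO, by 1.97 and 1.55 on the log2 scale, and 1 was 0.22 higher. Where these probes lie against the deleted parts was not tested, and every direction between genotypes below rests on the labels. Foxp3 was lower on the arrays labelled Nr4a-TKO, by log2 differences of -1.34 in naive cells and -1.47 at 3 h. Ikzf2 and Ctla4, the rest of the Treg markers read, differed by -1.47 and 0.82 in naive cells and by 0.16 and 0.02 at 3 h. The naive T markers Il7r, Lef1 and Tcf7 were lower at 3 h in both genotypes, by log2 differences of -2.86, -1.60 and -1.50 in WT and -2.65, -1.36 and -1.89 in Nr4a-TKO, and all 7 activation markers, Irf4 and Myc among them, were higher. B cell markers were read above background on all arrays, and their summed level was lower at 3 h, from 6.3 to 3.49 times the 75th percentile in WT and from 7.08 to 5.13 in Nr4a-TKO, while Ncr1 of NK cells and Hbb-b1 of red cells were above background on no array. The part of other cells in the results was not tested. In bulk RNA, fewer cells of a type and less RNA per cell cannot be told apart.

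Upstream sequences are shown for the 7 members with the highest mean difference between stages, taken in that order, so that a reader can see the control regions of the genes described first below. Each is the 250 bases before the gene's start on GRCm38.p6 as RefSeq places it, read 5′ to 3′ along the gene's strand. Capitals mark matches, on either strand, to the E-box CACGTG, the Ets letters CCGGAAG or the Nrf1 core GCGCATGC.
Mrps6, chr16:92058086-92058335, plus strand: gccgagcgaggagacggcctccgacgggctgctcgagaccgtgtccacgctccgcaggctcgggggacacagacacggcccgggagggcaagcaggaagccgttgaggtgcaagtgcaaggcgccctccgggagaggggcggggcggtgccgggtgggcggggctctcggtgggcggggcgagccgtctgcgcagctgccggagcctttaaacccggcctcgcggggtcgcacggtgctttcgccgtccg
Mrps10, chr17:47368947-47369196, plus strand: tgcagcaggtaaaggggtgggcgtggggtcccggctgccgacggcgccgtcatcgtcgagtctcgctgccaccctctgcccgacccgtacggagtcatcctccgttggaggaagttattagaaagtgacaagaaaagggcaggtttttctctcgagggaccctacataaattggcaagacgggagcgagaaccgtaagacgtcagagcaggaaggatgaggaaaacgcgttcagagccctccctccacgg
Mrpl12, chr11:120484387-120484636, plus strand: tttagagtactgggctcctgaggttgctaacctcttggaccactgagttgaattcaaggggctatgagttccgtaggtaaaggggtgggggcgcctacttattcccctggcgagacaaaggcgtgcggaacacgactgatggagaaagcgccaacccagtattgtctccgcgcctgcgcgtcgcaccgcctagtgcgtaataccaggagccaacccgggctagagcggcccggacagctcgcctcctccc
Mrpl20, chr4:155802628-155802877, plus strand: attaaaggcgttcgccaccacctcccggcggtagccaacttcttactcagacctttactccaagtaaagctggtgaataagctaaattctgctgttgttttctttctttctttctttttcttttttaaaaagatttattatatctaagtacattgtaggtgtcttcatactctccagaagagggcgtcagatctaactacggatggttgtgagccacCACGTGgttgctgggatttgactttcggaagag
Mrpl17, chr7:105811088-105811337, minus strand: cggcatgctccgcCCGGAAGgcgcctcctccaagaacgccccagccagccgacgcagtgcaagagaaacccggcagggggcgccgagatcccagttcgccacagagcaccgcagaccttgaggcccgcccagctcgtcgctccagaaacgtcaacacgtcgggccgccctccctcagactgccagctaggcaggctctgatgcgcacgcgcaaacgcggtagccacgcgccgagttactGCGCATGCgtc
Mrps7, chr11:115603890-115604139, plus strand: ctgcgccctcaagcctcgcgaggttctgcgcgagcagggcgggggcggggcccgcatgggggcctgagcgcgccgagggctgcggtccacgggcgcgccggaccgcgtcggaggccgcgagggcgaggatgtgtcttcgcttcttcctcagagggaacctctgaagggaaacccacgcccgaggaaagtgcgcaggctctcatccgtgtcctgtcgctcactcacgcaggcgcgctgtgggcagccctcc
Mrps18b, chr17:35916441-35916690, minus strand: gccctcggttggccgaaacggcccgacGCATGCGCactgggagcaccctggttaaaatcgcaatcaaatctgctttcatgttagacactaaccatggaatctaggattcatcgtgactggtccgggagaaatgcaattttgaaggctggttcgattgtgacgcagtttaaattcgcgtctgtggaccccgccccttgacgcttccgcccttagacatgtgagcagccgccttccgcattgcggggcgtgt
Mrps6, Mrps10, Mrpl12 and Mrps7 hold none of the letters searched, Mrpl20 holds an E-box, Mrpl17 holds an Ets match near the far end and an Nrf1 core next to the start, and Mrps18b holds an Nrf1 core on the other strand.

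Probes that cross an exon junction read spliced RNA, and 4 of them are shown because they cover a strongly changed gene, one near 0 and a pair of genes that lie next to each other. Their positions on mm9 run from the first to the last base and so span the intron between.
Mrps18b, chr17:36051313-36051461, minus strand: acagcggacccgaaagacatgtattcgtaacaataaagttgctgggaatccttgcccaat
Mrpl46, chr7:85925493-85926340, minus strand: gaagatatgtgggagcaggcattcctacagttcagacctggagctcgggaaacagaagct
Mrps11, chr7:85933622-85935544, plus strand: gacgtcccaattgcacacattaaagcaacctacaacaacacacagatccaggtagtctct
Mrps35, chr6:147009999-147019119, plus strand: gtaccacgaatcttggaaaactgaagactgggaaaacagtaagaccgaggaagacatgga
The Mrps18b probe was 1.95 higher at 3 h in WT and 1.66 in Nr4a-TKO, and the Mrps35 probe differed by 0.01 and -0.24. The Mrpl46 and Mrps11 probes come from genes whose bounds lie 41 bp apart on GRCm38.p6, Mrpl46 on the minus and Mrps11 on the plus strand. Mrpl46 was 0.92 and 0.65 higher at 3 h in WT and Nr4a-TKO, and Mrps11 was 0.63 and 0.57 higher.

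Mitochondrial ribosomal protein transcripts were more abundant after 3 h of iTreg culture in both genotypes. The median difference between 3 h and naive cells was 0.83 in WT and 0.77 in Nr4a-TKO, against -0.09 and -0.04 over all named genes measured. The quartiles of the members were 0.45 and 1.19 in WT and 0.50 and 1.29 in Nr4a-TKO. In WT, 69 of 77 genes were above 0, and in Nr4a-TKO 72 were, where 43.8% and 47.0% of all named genes measured were. In WT, 29 genes were more than 2-fold higher at 3 h, where 10.2% of all 23278 genes measured were, and 1 was more than 2-fold lower, where 11.3% of all genes were. In Nr4a-TKO, 28 passed 2-fold upward, where 9.59% of the named genes did, and 0 passed it downward, where 10.2% did. Both genotypes shared 24 of the 2-fold higher genes, which is 82.8% of the WT list and 85.7% of the Nr4a-TKO list. The same overlap was not counted over all named genes, whose differences correlated between genotypes with r = 0.768. These counts and medians depend on the background correction. With normexp, an offset of 50 and quantile normalization, 12 genes in WT and 11 in Nr4a-TKO were past 2-fold higher. Both medians were then 0.45, against -0.02 in WT and -0.01 in Nr4a-TKO over all genes. The shares of all genes past 2-fold given above belong to the main values and not to that setting.

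**Figure D1:**
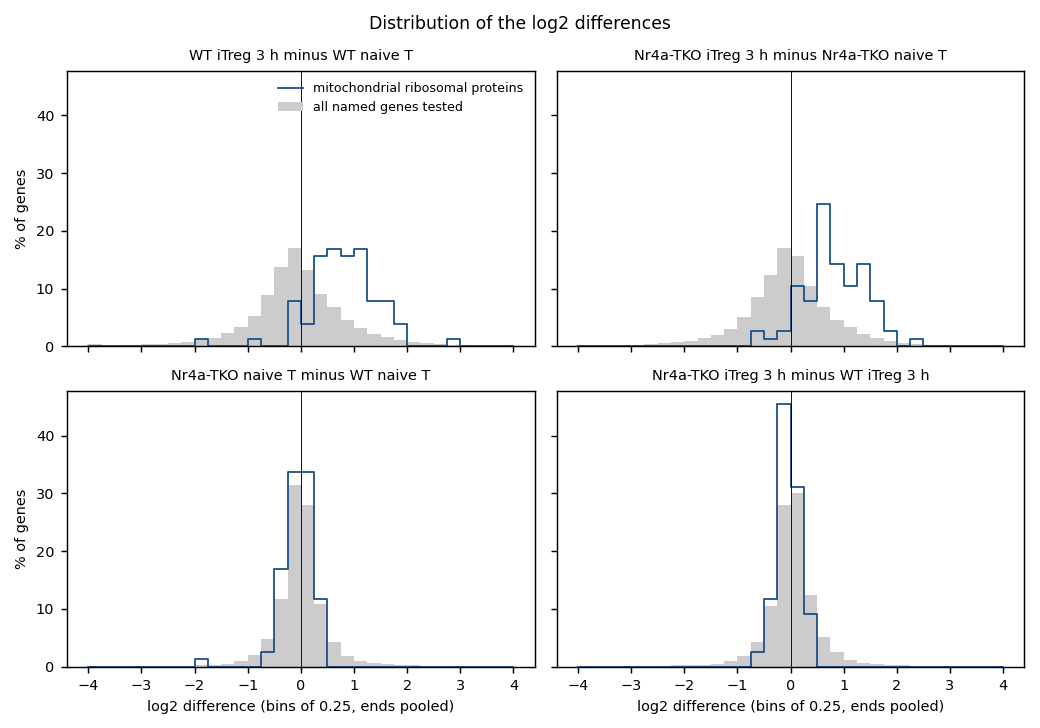
Share of genes, in percent, in bins of the log2 difference for each of the 4 comparisons; grey bars are all named genes measured and the blue line is the 77 mitochondrial ribosomal protein genes. The members sit to the right of the other genes between stages (medians 0.83 and 0.77) and near 0 between genotypes (medians -0.03 and -0.05).

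The shift was found in each structural class. Among the 30 large-subunit proteins with a bacterial counterpart, the median difference was 0.93 in WT and 0.90 in Nr4a-TKO, and 14 genes were more than 2-fold higher in each genotype. This class ran from -1.93 to 1.79 in WT, or from -0.89 without Mrpl10, whose low value rests on 1 probe on 1 array, and it held all but 1 of the members below 0 in WT. The 20 mitochondria-specific proteins of the large subunit were closer together, with medians of 0.83 and 0.76 and with all 20 above 0 in both genotypes. The 16 small-subunit proteins with a bacterial counterpart had medians of 0.83 and 0.76, with 15 above 0 in WT and all 16 in Nr4a-TKO. The 10 mitochondria-specific small-subunit proteins had the lowest medians, 0.67 and 0.51, and 2 of them, Mrps18b and Mrps22, were past 2-fold in both genotypes. Mrps18b was put in this class although it is related to the bacterial protein S18.

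**Figure D2:**
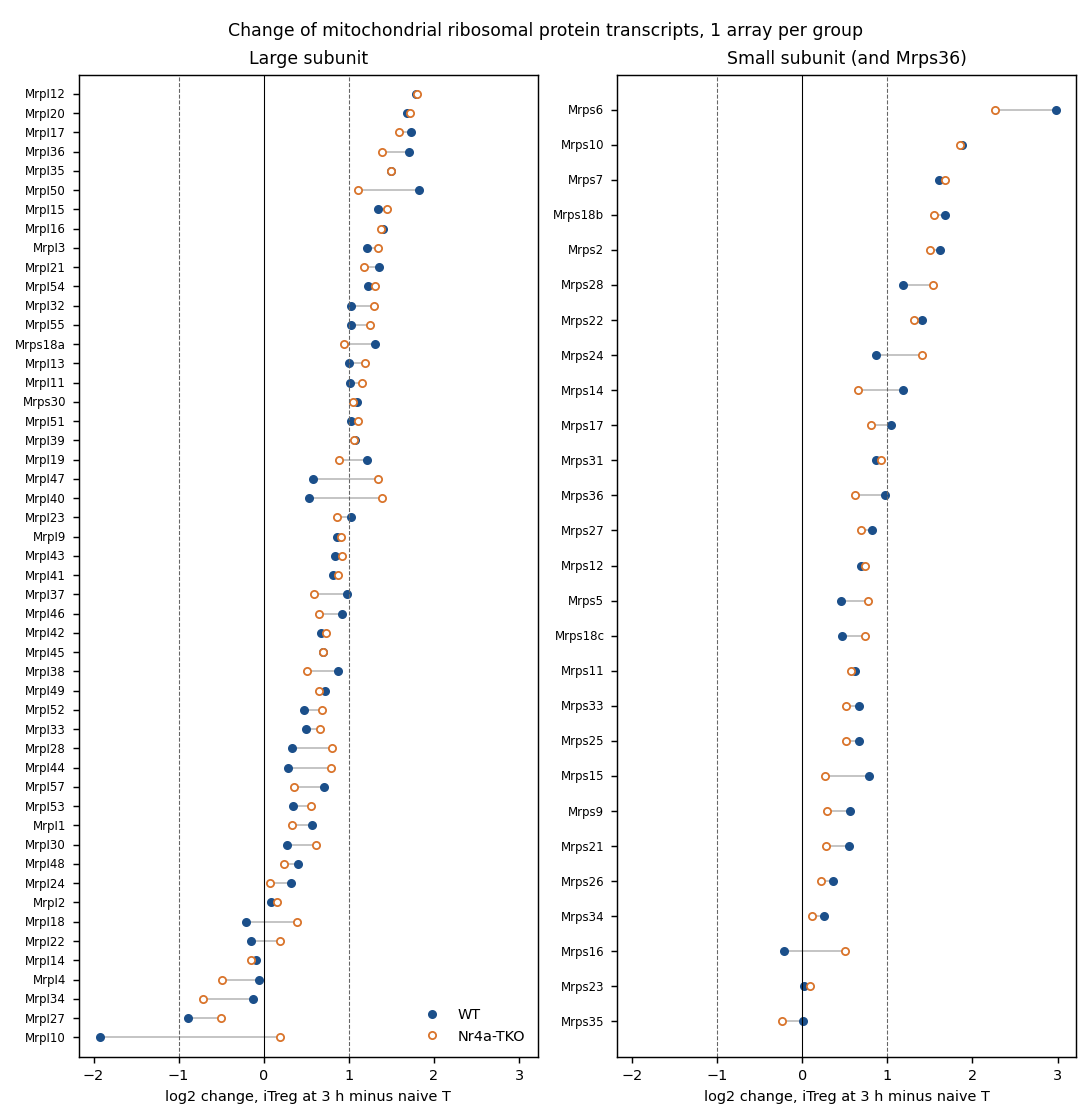
log2 difference between iTreg at 3 h and naive T for each gene, ordered by the mean of both genotypes; filled blue points are WT, open orange points Nr4a-TKO, dashed lines mark 2-fold, and each point comes from 1 array pair. Most genes lie between 0 and 2 with both points close together, and Mrps6 at the top and Mrpl10 at the bottom stand apart.

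Mrps6, which binds the ribosomal RNA of the small-subunit platform, had the largest difference of all members in both genotypes. Its level was 0.72 on the WT naive array, 0.81 on the Nr4a-TKO naive array, 3.70 in WT and 3.08 in Nr4a-TKO at 3 h, so both 3 h arrays lay far above both naive arrays. The difference was 2.98 in WT, 7.87-fold, and 2.27 in Nr4a-TKO, 4.82-fold. The gene is read by 1 probe, at chr16:92112223-92112282 on mm9. Slc5a3, the sodium and myo-inositol cotransporter gene, overlaps Mrps6 on GRCm38.p6, and its own probe was 2.83 higher in WT and 2.00 higher in Nr4a-TKO. Whether the Mrps6 probe also reads RNA that starts or ends with Slc5a3 was not tested.

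Other small-subunit proteins with a bacterial counterpart followed. Mrps10, which sits in the head of the small subunit, had levels of 0.89 and 1.01 on the WT and Nr4a-TKO naive arrays and 2.77 and 2.87 at 3 h. These are differences of 1.88 and 1.86, and the genotypes lay 0.12 apart in naive cells and 0.10 at 3 h. Mrps7, the protein that organises the head, had levels of 1.04 and 1.09 in naive cells and 2.65 and 2.76 at 3 h. Its second probe gave a difference of 1.32 in WT and 1.82 in Nr4a-TKO, beside 1.61 and 1.67 for the brighter probe. Mrps2 was 1.62 and 1.5 higher at 3 h, and its 2 probes differed from each other by 0.006 in WT and 0.002 in Nr4a-TKO. Mrps28 was 1.18 higher in WT and 1.54 in Nr4a-TKO, from naive levels of 0.00 and -0.62. Mrps14 and Mrps17 passed 2-fold in WT, at 1.19 and 1.04, with 0.66 and 0.80 in Nr4a-TKO. The other RefSeq probe of Mrps17 gave 1.23 in WT and 1.27 in Nr4a-TKO, past 2-fold in both. Mrps24 passed it in Nr4a-TKO, at 1.40, with 0.86 in WT.

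Mrps12, the protein of the decoding centre and the counterpart of the bacterial protein where streptomycin resistance arises, had levels of 2.02 and 1.86 in naive cells and 2.71 and 2.61 at 3 h. Its differences of 0.69 and 0.74 were near the median of the members. Mrps16 had opposite signs in the genotypes, with levels of 1.01 and 0.79 for WT naive and 3 h and of 0.62 and 1.12 for Nr4a-TKO. Both differences, -0.21 and 0.50, were under 1.5-fold. Mrps5 and Mrps15 were higher at 3 h by 0.45 and 0.79 in WT and by 0.77 and 0.27 in Nr4a-TKO. The other RefSeq probe of Mrps5 gave smaller differences, 0.205 in WT and 0.243 in Nr4a-TKO. A dimmer probe of Mrps15, for an Ensembl transcript, gave -0.21 and -0.49, so the direction for Mrps15 depends on the probe.

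The 3 Mrps18 genes are paralogues of the bacterial protein S18, each held by ribosomes at a different place. Despite this shared origin, Mrps18a and Mrps18b were classed above as mitochondria-specific and Mrps18c as having a bacterial counterpart. Mrps18b read 2.21 and 2.28 on the naive arrays and 3.89 and 3.82 at 3 h, a difference of 1.68 in WT and 1.55 in Nr4a-TKO. Across its 3 probes above background on all arrays the difference lay between 1.61 and 1.95 in WT and between 1.55 and 1.66 in Nr4a-TKO. Mrps18a, which sits in the large subunit, read -0.44 and -0.06 on the naive arrays and 0.87 and 0.88 at 3 h, differences of 1.3 and 0.95. Mrps18c, which takes the place of S18 itself, read 3.35 and 3.18 on the naive arrays and 3.82 and 3.92 at 3 h, differences of 0.47 and 0.74. In both genotypes the difference was highest for Mrps18b and lowest for Mrps18c, with no replicate behind that order.

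Large-subunit genes with bacterial counterparts, the largest class with 30 members, also held the most genes past 2-fold higher. Past it were 46.7% of them in each genotype, beside 43.8% in WT and 37.5% in Nr4a-TKO of small-subunit genes with bacterial counterparts. Mrpl12, the stalk protein that recruits translation factors and also binds the mitochondrial RNA polymerase, read 0.53 and 0.49 on the naive arrays and 2.31 and 2.29 at 3 h. The differences were 1.79 and 1.80, 3.45-fold and 3.49-fold, and the genotypes lay within 0.04 of each other at both stages. Mrpl20 read 0.78 and 0.70 in naive cells and 2.46 and 2.42 at 3 h, differences of 1.68 and 1.72. Mrpl17, which lies near the exit of the peptide tunnel, read 0.91 and 1.04 in naive cells and 2.65 and 2.62 at 3 h, differences of 1.73 and 1.59. In each of these 3 genes both 3 h arrays lay over 1.5 above both naive arrays. Mrpl36 was 1.71 and 1.38 higher at 3 h and Mrpl35 1.5 and 1.49 higher. Mrpl35 was dim, with naive levels of -3.11 and -2.97.

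Mrpl15, Mrpl16, Mrpl3, Mrpl21, Mrpl32, Mrpl55 and Mrpl11 were also past 2-fold in both genotypes, with differences between 1.02 and 1.45. Mrpl11, which anchors the stalk, read 3.08 and 2.87 in naive cells and 4.10 and 4.02 at 3 h. Mrpl21 agreed between its 2 probes in WT (1.36 and 1.43) and less so in Nr4a-TKO (1.18 and 1.54). Mrpl19 and Mrpl23 passed 2-fold in WT, at 1.22 and 1.03, beside 0.89 and 0.85 in Nr4a-TKO. Mrpl13 and Mrpl47 passed it in Nr4a-TKO, at 1.19 and 1.34, beside 1.00 and 0.58 in WT. The Mrpl13 value comes from a dim probe for an Ensembl transcript, because the RefSeq probe had an outlier flag on the WT naive array; that probe was 0.44 higher at 3 h in Nr4a-TKO.

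**Figure D3:**
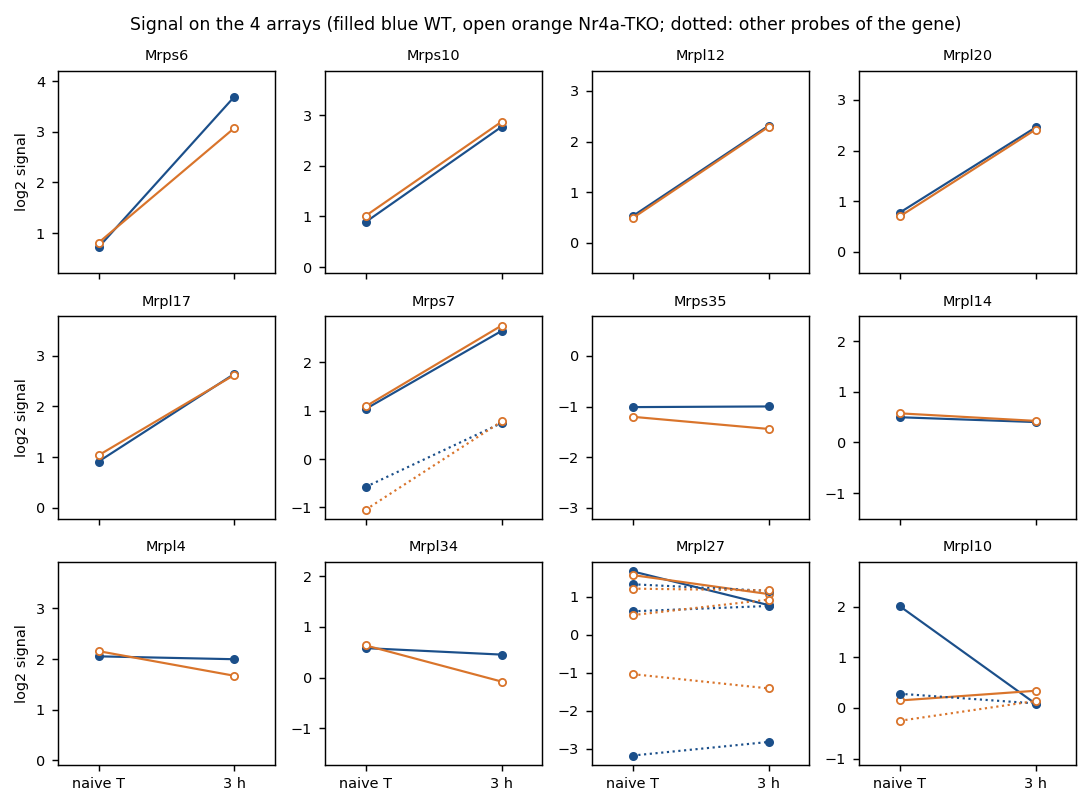
log2 signal relative to the 75th percentile of each array for the 6 genes with the highest and the 6 with the lowest mean difference; filled blue points are WT and open orange points Nr4a-TKO, solid lines join the probe that represents the gene and dotted lines its other probes above background on all arrays. All axes span at least 4 log2 units, and for Mrpl10 the WT naive point of 1 probe lies far above the 3 other arrays.

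Among the mitochondria-specific proteins of the large subunit, Mrpl50 had the largest difference in WT. It read -1.62 and -1.24 on the naive arrays and 0.20 and -0.14 at 3 h, differences of 1.82 in WT and 1.11 in Nr4a-TKO. Mrpl54, Mrps30, Mrpl39 and Mrpl51 were past 2-fold in both genotypes, between 1.02 and 1.3. Mrpl40 was past it in Nr4a-TKO alone, with levels of -1.31 and -0.78 in WT and -1.72 and -0.33 in Nr4a-TKO, differences of 0.53 and 1.39. Mrpl45, which faces the inner membrane at the exit of the tunnel, read -0.31 and -0.10 in naive cells and 0.40 and 0.60 at 3 h, differences of 0.70 and 0.69. Mrpl38, Mrpl44 and Mrpl52 were higher by 0.87, 0.29 and 0.47 in WT and by 0.51, 0.79 and 0.68 in Nr4a-TKO. The other RefSeq probe of Mrpl44 gave 1.11 in WT and 1.95 in Nr4a-TKO, past 2-fold in both. Of the small-subunit proteins of this kind, Mrps22 was 1.40 and 1.31 higher, and Mrps34 and Mrps35 lay between -0.24 and 0.26.

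A few members did not follow the group. Mrpl27, Mrpl34, Mrpl4 and Mrpl14, all large-subunit proteins with a bacterial counterpart, were lower at 3 h in both genotypes and were the 4 genes to be so. Mrpl27, which lies near the peptidyl transferase centre, read 1.67 and 1.58 on the naive arrays and 0.79 and 1.08 at 3 h, differences of -0.89 and -0.50. A second RefSeq probe of Mrpl27 gave -0.17 and -0.05, and the other RefSeq probe gave 0.14 and 0.41, so its direction depends on the probe. Mrpl34 differed by -0.13 in WT and by -0.71 in Nr4a-TKO, Mrpl4 by -0.06 and -0.49, and Mrpl14 by -0.10 and -0.15. Mrpl24 stood at 0.32 and 0.07. Mrpl18, Mrpl22 and Mrps16 were below 0 in WT and above 0 in Nr4a-TKO, Mrps35 the other way, and all 4 differed by less than 1.5-fold in each genotype. The other RefSeq probe of Mrpl22 gave 0.11 in WT and 0.26 in Nr4a-TKO, so its sign in WT depends on the probe.

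Mrpl10, the protein that holds the Mrpl12 stalk on the ribosome, rests on 1 array. Its brighter probe, at chr11:96910057-96910116 on mm9, read 2.01 on the WT naive array, 0.15 on the Nr4a-TKO naive array, 0.08 at 3 h in WT and 0.34 at 3 h in Nr4a-TKO. Its other probe, for the same RefSeq transcript at chr11:96909769-96909828, read 0.28, -0.25, 0.09 and 0.14 on the same arrays in that order. The difference between stages in WT was thus -1.93 by the first probe and -0.19 by the second, and in Nr4a-TKO it was 0.19 and 0.39. The WT naive value of the first probe stands apart from the other 3 arrays, and no such value was seen with the second.

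Of 30 members with more than 1 probe, 25 had at least 2 above background on all arrays. Their probes had the same sign in 20 genes in WT and 21 in Nr4a-TKO, and lay within 0.5 of each other in 15 and 18. Mrpl23 was the gene whose probes went opposite ways past 1.5-fold. Its RefSeq probe was 1.03 and 0.85 higher at 3 h in WT and Nr4a-TKO, and a dim probe for an Ensembl transcript of the gene was -0.91 and -0.96. A probe for an Ensembl transcript of Mrpl48 was above background on the WT 3 h array alone, where it read -0.15. That is at least 11.1-fold over the lowest well-measured signal of the WT naive array, whereas 3 other probes of Mrpl48 differed by 0.24 to 0.81 in WT.

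Across the members, the differences between stages were alike in size in both genotypes. The differences between stages correlated with r = 0.814 over the 77 genes, and with 0.859 over 76 genes without Mrpl10, beside 0.768 over 22299 named genes. The 2 differences share no array, but they share probes, sequences and the processing, and genes are not independent replicates. In 68 genes both were above 0, in 4 both were below and in 5 the signs were opposite. These signs were not counted over all named genes. The difference in Nr4a-TKO minus that in WT had a median of -0.01 and quartiles of -0.24 and 0.17, with 41 genes below 0 and 36 above. It passed 1.5-fold in 8 members, 10.4%, beside 20.4% of all genes, and 2-fold in 1 member, Mrpl10. The other 7 were Mrpl40 (0.86), Mrpl47 (0.77), Mrps16 (0.71) and Mrpl18 (0.61), where the value in Nr4a-TKO was above that in WT, and Mrpl50 (-0.72), Mrps6 (-0.71) and Mrpl34 (-0.59), where it was below. Mrpl50 and Mrps6 were thus less raised at 3 h in Nr4a-TKO, and Mrpl34 was further below its naive level. The 20.4% over all genes includes genes near background on some arrays, which the members do not.

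**Figure D4:**
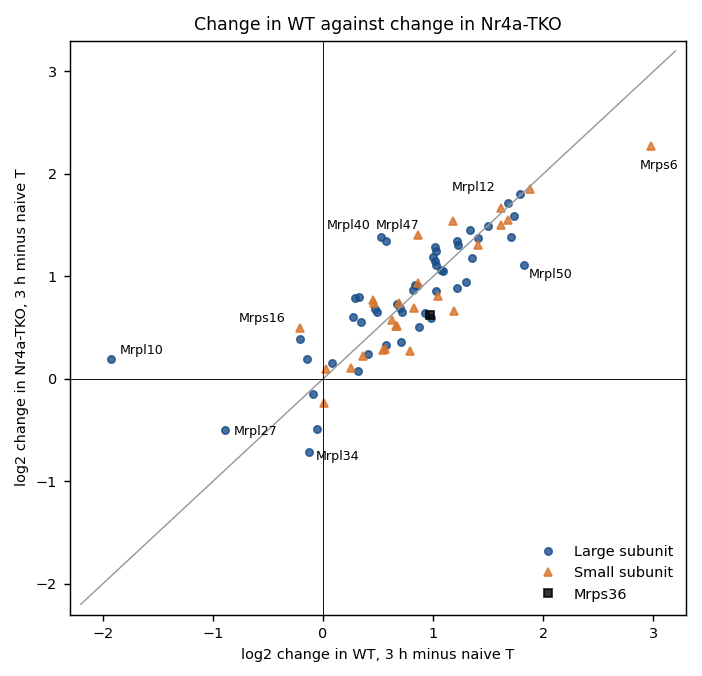
log2 difference between 3 h and naive T in WT (horizontal) against Nr4a-TKO (vertical) for 77 genes; blue circles are large-subunit, orange triangles small-subunit genes, the black square Mrps36, and the grey line marks equal differences. The genes follow the line (r = 0.814), with Mrpl10 far to its left.

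Between genotypes at one stage, the members differed little. In naive cells the median of Nr4a-TKO minus WT was -0.03, beside -0.01 over all named genes, and the median size of the difference was 0.18, beside 0.19. Of the members, 0 were above WT by more than 2-fold in Nr4a-TKO, where 2.82% of all genes were, and 1, Mrpl10, was more than 2-fold lower, where 2.51% were. At 3 h the median was -0.05, beside 0.02, and the median size 0.11, beside 0.20. At 3 h, 0 members passed 2-fold upward in Nr4a-TKO, where 2.79% of the named genes did, and 0 passed it downward, where 2.65% did. Past 1.5-fold lay 3 members in naive cells and 1 at 3 h, where 14.3% and 15% of all genes did. All genes include those well above background on only 1 of the 2 arrays, whereas the members were so on all 4. The shares over all genes are thus not of equally bright genes.

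The naive genes past 1.5-fold were Mrpl10 (-1.86 by the brighter and -0.54 by the other probe), Mrpl47 (-0.73) and Mrps28 (-0.61), all lower in Nr4a-TKO, and the gene at 3 h was Mrps6 (-0.62). At the other end were Mrpl38 (0.46) and Mrpl50 (0.38) in naive cells and Mrpl40 (0.45) and Mrpl18 (0.37) at 3 h, the highest values of Nr4a-TKO minus WT. Mrpl34 was lower by 0.53 on the log2 scale in Nr4a-TKO at 3 h, Mrps34 differed by -0.45, Mrps35 by -0.44 and Mrpl1 by -0.44. Several of these values depend on the probe. The other probe of Mrpl1 gave -0.04 at 3 h and that of Mrpl38 gave -0.01 in naive cells. The other RefSeq probes of Mrpl44 and Mrps22 gave -0.73 and 0.63 in naive cells, beside -0.21 and 0.12 for the probes that represent these genes. The sign was the same at both stages in 41 of 77 genes, and this was not counted over all named genes.

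Other genes of mitochondrial gene expression were read beside the members. Of 6 mitoribosomal proteins with other names, 3 were more than 2-fold higher at 3 h in WT and 2 in Nr4a-TKO, with medians of 0.86 and 0.77. These are 50% and 33.3% of a short list, beside 10.2% and 9.59% of all genes. Ptcd3, the small-subunit protein mS39, was 1.44 and 1.26 higher, and Chchd1 1.31 and 1.33 higher. Ict1, the peptide release protein built into the large subunit, was -0.42 and -0.64. Of 12 translation factors, 5 were past 2-fold higher in WT and 2 in Nr4a-TKO, with medians of 0.39 and 0.07. These are 41.7% and 16.7% of the list, beside the same shares of all genes, and 5 of the 12 were below 0 in each genotype. Mrrf, the ribosome recycling factor, differed by 1.84 and 0.69, from naive levels that were 1.08 higher in Nr4a-TKO. The release factor gene Mtrf1 was at the other end, at -0.69 and -0.87. The elongation factor genes Tufm and Gfm1 were 1.06 and 1.33 higher in WT and 0.96 and 1.11 in Nr4a-TKO.

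Of 22 genes for assembly and modification of the mitochondrial ribosome, 3 were past 2-fold higher in WT and 1 in Nr4a-TKO, with medians of 0.31 and 0.16; these are 13.6% and 4.5% of the list, near or below the 10.2% and 9.59% of all genes. Fastkd2, which binds the large ribosomal RNA, was 1.47 and 1.74 higher. Wbscr16, the lowest of the list in Nr4a-TKO, differed by 1.07 in WT and -1.195 in Nr4a-TKO. Its naive level was 2.2 higher in Nr4a-TKO than in WT. Of 6 genes of mitochondrial transcription, 1 was past 2-fold higher in WT and 2 in Nr4a-TKO. These are 16.7% and 33.3% of a short list, beside the same shares of all genes. Tfb2m, the transcription initiation factor, was 1.23 and 1.12 higher, beside 0.15 and 0.15 for Tfam, which packs mitochondrial DNA.

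Nuclear-encoded subunits of the respiratory chain, of which 75 were measured, had medians of 0.42 and 0.41 at 3 h minus naive, and 10 were past 2-fold higher in WT and 8 in Nr4a-TKO. These are 13.3% and 10.7% of the list, close to the 10.2% and 9.59% of all genes. Cytosolic ribosomal proteins had medians of 0.01 over 83 genes in WT and 0.10 over 82 in Nr4a-TKO, with 4 and 3 past 2-fold higher, 4.8% and 3.7% of the list. The median of the mitochondrial ribosomal proteins was thus above those of both lists in each genotype. No test of these differences between lists was made.

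**Figure D5:**
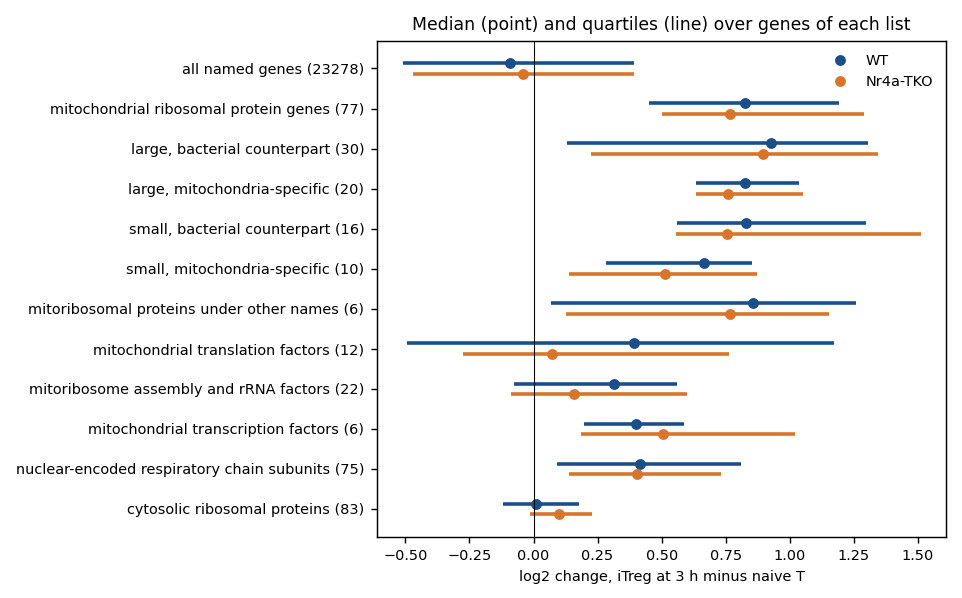
Median (point) and quartiles (line) of the log2 difference between 3 h and naive T over the genes of each list, with the number of genes measured in WT in brackets; blue is WT and orange Nr4a-TKO. The 4 classes of mitochondrial ribosomal proteins have medians from 0.51 to 0.93, respiratory chain subunits near 0.4 and cytosolic ribosomal proteins near 0.

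The letters of 6 known motifs were counted in the 250 bases before the start of 68 members listed in the RefSeq table, on both strands. The Ets letters CCGGAAG were in 25% of members, beside 10.2% of 17492 protein-coding genes in the table. The Nrf1 core GCGCATGC, bound by a known regulator of nuclear genes for mitochondria, was in 11.8% of members, beside 3.32%. The YY1 letters AAGATGG were in 8.82%, beside 4.77%, and the E-box CACGTG, which Myc and Max bind, in 7.35%, beside 7.61%. The CRE letters TGACGTCA were in 2.94%, beside 2.20%. The Nr4a monomer letters AAAGGTCA were in 0 of 68 windows, beside 1.39%, which says only that these letters are not in these windows. Of the 21 listed genes past 2-fold in both genotypes, 4 held the Ets letters and 4 the Nrf1 core. Of the 40 past it in neither, 12 held the Ets letters and 4 the Nrf1 core. A match is a description of the sequence, and no binding was measured here.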

How the data were processed

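Total RNA from 4 samples was labelled with Cy3 and hybridised to Agilent 8x60K mouse arrays, and the authors deposited the scanner output of Agilent Feature Extraction 11.5.1.1. For each spot it holds a mean intensity, a local background intensity and a processed intensity, background-subtracted by the scanner software. The authors also deposited a sheet of log2 values. Their methods name RMA, but over the member probes it equals log2 processed intensity minus the 75th percentile of the array, with an SD of at most 0.003 around that.

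Here the main values were the same quantity, computed from the scanner output. Control spots and outlier spots (115 to 160 per array) were left out, and spots of a probe were averaged. Among probes measured on all 4 arrays, the one with the highest mean represented its gene. Probes near background were set to a floor, the lowest well-measured value of their array (-3.63 for WT and -3.67 for Nr4a-TKO naive cells, -3.83 for WT and -3.97 for Nr4a-TKO at 3 h). A difference needed 1 of its 2 arrays well above background, and the threshold was 2-fold. Each array carried 62976 spots, and the median foreground intensity was 44.8 to 45.4 over a local background of 20 to 21, which limits the precision of dim probes.

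With 1 array per group no test was made. Genes were named where they passed 2-fold in a comparison, were among the 6 highest or lowest of a comparison, had probes that disagreed, or belonged to a fixed set of paralogues and stalk, membrane and decoding proteins. The members and lists were chosen with earlier results of these data known. Gene symbols were those of the files, and all 77 are current RefSeq symbols. Probe coordinates are on mm9 and promoter coordinates on GRCm38.p6, and the 2 were not mixed. The Nrf1 and YY1 motifs were shortened to the letters given. Work was done with R 4.3.3, limma 3.58.1, data.table version 1.17.8, Python 3.11.15, pandas 2.3.3, numpy 2.4.6 and matplotlib 3.10.9, and the step that computes and counts differences was checked on simulated data. Arrays at 24 h were not analysed here.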

Additional observations from a re-analysis of the deposited data

Results flagged for a closer look

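A probe for a cDNA of Mrpl27 other than its RefSeq transcript, which does not represent the gene in the comparisons, read 2.14 higher in Nr4a-TKO than in WT naive T and 1.41 higher at 3 h. It was drawn out as a signal in data outside the main values. Its levels were -3.18 and -1.03 on the WT and Nr4a-TKO naive arrays and -2.82 and -1.41 at 3 h. The 3 RefSeq probes of Mrpl27 differed between genotypes by -0.11 to -0.10 in naive cells and by 0.01 to 0.29 at 3 h. With 1 array per group the difference has no replicate check.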

How the results depend on the processing

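No paired analysis was possible because each group has 1 array, and no array could be left out. With normexp background correction and quantile normalization, the median difference between stages moved to 0.72 in WT and 0.66 in Nr4a-TKO, and 22 of 29 and 23 of 28 genes past 2-fold remained so. This setting shares steps with RMA but is not RMA, since it used the local background and averaged the spots of a probe. With normexp and an offset of 50 the medians were 0.45 and 0.45, against -0.02 and -0.01 over all genes, and 12 members in WT and 11 in Nr4a-TKO were past 2-fold. A 1.5-fold threshold on the main values gave 49 and 52 members higher at 3 h and 2 and 1 lower. Of all named genes, 4411 of 23278 in WT and 4340 of 23778 in Nr4a-TKO were higher, and 5087 and 4862 were lower. Between genotypes, 3 members were lower in Nr4a-TKO in naive cells and 1 at 3 h, beside 1663 of 23161 and 1620 of 23559 named genes. Averaging all probes of a gene, taking the authors' table, centring on the median and other filters on dim probes left each median within the array spread and each of these counts of members within 1.5 times its value. The median of the members stayed above that of all genes between stages under each setting run, by 0.46 to 1.02. Signal close to background limits dim probes such as that of Mrpl35.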
